A study of Mus musculus with 9 samples.

Results

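Lipoprotein lipase and the genes that act on it were followed in brown fat, white fat and soleus muscle. The 9 genes were chosen by symbol, Lpl, Lipg, Gpihbp1, Lmf1, Lmf2, Sel1l, Angptl4, Angptl1 and Angptl2, and all 9 were found among the 17753 genes of the deposited matrix. RNA-seq had been done on 3 libraries of each tissue from male C57BL/6J wild-type animals at 3 months of age, and the labels name no treatment or altered allele in any group. The labels give 3 mice without tying libraries to animals and do not name the white fat depot, so p-values measure the spread between these libraries alone. The tissues compared hold many cell types, and fewer cells of a type and less RNA per cell cannot be told apart in them.

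Lipoprotein lipase is made by adipocytes and muscle fibres, folds in the endoplasmic reticulum with the help of LMF1 and of the SEL1L complex, and leaves the cell to work on the capillary wall. There GPIHBP1, an anchored protein of the endothelium, carries it across the cell and holds it in the vessel, where it frees fatty acids from the triglycerides of chylomicrons and VLDL. ANGPTL4 inactivates the enzyme, in white fat most of all during fasting, and so helps to decide which tissue receives the fat. LIPG, endothelial lipase, is a close relative that prefers the phospholipids of HDL. ANGPTL1 and ANGPTL2 share the fold of ANGPTL4 but are known for roles in vessels and in inflammation, and LMF2 is a relative of LMF1 whose part in lipase folding is less settled.

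Values are FPKM, fragments scaled to transcript length and to the mapped total of a library, so that levels of different genes may be set side by side. Relative sequencing depth, read from the spacing of the lowest values, was lowest in white fat replicate 2 (set to 1) and highest in white fat replicate 3 (3.58), and the sums of FPKM ran from 214066 to 353399. Marker genes were compared with the tissue labels. The 11 skeletal muscle markers summed to 43532 to 52512 FPKM in soleus, against 39.9 to 280 in brown fat and 19.9 to 39.9 in white fat, although Acta1, Ckm and Mb, defining genes of muscle, were listed at 0 in all soleus libraries. The summed brown adipocyte markers reached 14920 to 16215 FPKM in brown fat against 47 to 219 for white fat, but also 7484 to 9527 for soleus through Cox8b and Cox7a1, which muscle uses too. Differences between tissues were tested on log2(FPKM + 1), a scale that understates the change of low genes, with limma over 9913 genes and Benjamini-Hochberg adjustment. At an adjusted p under 0.05, limma called 72.8% of all tested genes between brown and white fat, 78.5% between brown fat and soleus and 84.2% between white fat and soleus, so a call alone is common in these data.

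All 9 genes passed the filter of 1 FPKM in at least 3 libraries, Lipg only through brown fat, where it was highest. Against white fat, 5 of the 9 were called higher in brown fat, where 38.0% of all genes were, and 2 were called lower, where 34.8% were. Among the 5 were Lpl, which was listed at 0 in white fat, and Lipg, which had to differ because of the filter. Against soleus, 8 were called higher in brown fat (52.9% of all genes) and 0 lower (25.6%), and by limma the count of 0 was also 0 at an unadjusted p under 0.05. Lipg is again among the 8. White fat was called higher than soleus for 7 (54.5% of all genes) and lower for 2 (29.7%), Lpl, again on its listing at 0, and Angptl1. The median log2 difference of the 9 was 0.31, 1.07 and 0.63 in these comparisons, beside 0.03, 0.29 and 0.35 over all tested genes, and without Lpl against white fat it was 0.16 between the fats and 0.78 for white fat over soleus. These comparisons share libraries, so their counts are not independent of each other.

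**Figure D1:**
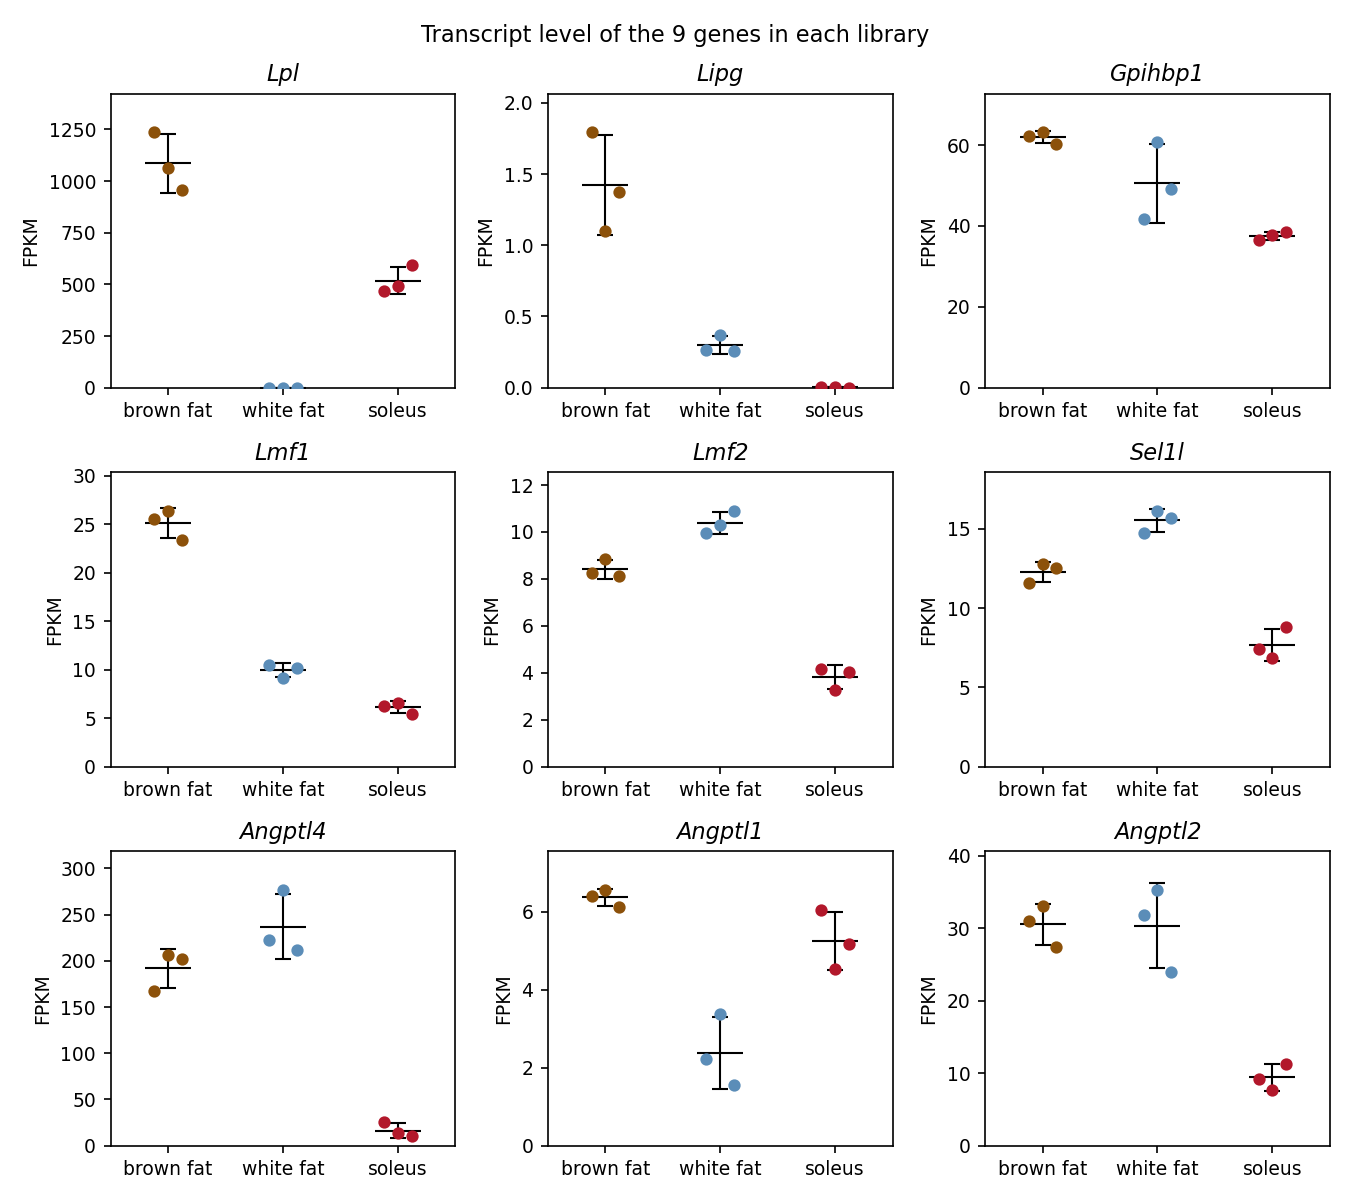
FPKM of the 9 genes in each library (points, replicates 1 to 3 from left to right), with the mean (wide bar) and SD (capped line) over the 3 libraries of a tissue; each vertical axis starts at 0. Lmf1 and Lipg stepped down from brown fat to white fat to soleus, Lmf2 and Sel1l were highest in white fat, Angptl1 was lowest there, and Lpl was listed at 0 there.

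Lpl, the lipase itself, was among the most abundant transcripts of brown fat. It stood at 1238, 1061 and 956 FPKM in brown fat replicates 1, 2 and 3, which ranked it 38, 47 and 49 among 17753 genes. In soleus it stood at 470, 490 and 594 FPKM, at ranks 98, 108 and 80. The brown fat and soleus libraries did not overlap, with means of 1085 ± 142 and 518 ± 66.8 FPKM (SD, n = 3 each), and brown fat was higher by 1.07 on the log2 scale (SE 0.11, limma adjusted p = 6.4e-06; 0.65 to 1.17 over the alternatives). In white fat Lpl was listed at exactly 0 in all 3 libraries. White fat is known to make much lipoprotein lipase, and an exact 0 in these files can be a failed estimate: of 620 genes that averaged 100 FPKM or more in brown fat or soleus, 10 were listed at 0 throughout white fat, among them Cfd, an abundant adipocyte gene. No fold change of Lpl against white fat is therefore given, and its calls there are counted above only with that remark.

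Lipg, the endothelial lipase gene, was low everywhere and highest in brown fat. It stood at 1.80, 1.10 and 1.37 FPKM in brown fat, against 0.267, 0.370 and 0.259 for white fat and 0.00525, 0.00745 and 0 for soleus. No library of one tissue overlapped those of another. On the log2(FPKM + 1) scale the difference was 0.89 (SE 0.10) between brown and white fat, 1.26 (SE 0.10) between brown fat and soleus and 0.37 (SE 0.10) between white fat and soleus. These are given as a description, with no p, because the gene passed the filter through brown fat alone and so had to differ there. The pseudocount sets the size of these differences at such levels: that between brown and white fat was 1.92 with a pseudocount of 0.1 and 0.28 with a pseudocount of 5.

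Gpihbp1, which encodes the capillary anchor of the lipase, was highest in brown fat and had a wide spread within white fat. It stood at 62.3, 63.3 and 60.4 FPKM in brown fat replicates 1, 2 and 3, at 41.6, 60.8 and 49.1 for white fat, and at 36.5, 37.7 and 38.5 in soleus. White fat replicate 2 reached the range of brown fat, while white fat replicate 1 came near soleus. Brown fat exceeded soleus by 0.71 log2 units (SE 0.12, limma adjusted p = 0.0002), and by 0.30 to 0.73 over the alternatives. White fat exceeded soleus by 0.40 (SE 0.12, limma adjusted p = 0.0078). That difference was 0.96 after rescaling to a common total (adjusted p = 5.4e-05) and 0.19 with upper quartile scaling (adjusted p = 0.14), and with median of ratios scaling it turned to -0.07 (adjusted p = 0.6).

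The step from white to brown fat was the least secure for Gpihbp1. It was 0.31 log2 units as deposited (SE 0.12, limma adjusted p = 0.035) and turned to -0.28 after rescaling to a common total (adjusted p = 0.087). The totals behind that rescaling were 328326 to 343132 FPKM in brown fat and 214066 to 235019 in white fat. Genes listed at 0 in white fat, such as Lpl and Cfd, add nothing to its totals, and the effect of this was not tested. The call was lost with upper quartile scaling (0.15, adjusted p = 0.28) and with those tissues alone in the fit (adjusted p = 0.066). Leaving out brown fat replicate 1, 2 or 3 gave an adjusted p of 0.072, 0.085 or 0.06, and leaving out white fat replicate 1 or 3 gave 0.13 or 0.083. Over all alternatives the adjusted p ran from 0.0013 to 0.28.

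Gpihbp1 is made by capillary endothelium, so it was read beside 14 endothelial marker genes found in the matrix, of which none was listed at 0. Their summed level was 182, 165 and 188 FPKM in brown fat, against 102, 152 and 127 for white fat and 109, 115 and 114 for soleus. The white fat libraries took the same order for the markers as for Gpihbp1, with replicate 2 highest and replicate 1 lowest. Of the 14 markers, 8 were called higher and 0 lower in brown fat relative to white fat, with a median of 0.44 log2 units. By limma at an unadjusted p under 0.05, 0 were lower too. The count of 0 did not hold in all alternatives. Without brown fat replicate 1 or 3, or without white fat replicate 1, 1 marker was called lower. Upper quartile scaling gave 6 higher and 2 lower, with a median of 0.28. Rescaling to a common total gave 3 higher and 3 lower, and the median turned to -0.12. Over all tested genes 38.0% were higher and 34.8% lower, with a median of 0.03, or of -0.50 after that rescaling. Set against the mean log2 level of these markers, Gpihbp1 stood 2.45, 2.63 and 2.37 log2 units above them in brown fat, against 2.68, 2.72 and 2.65 for white fat and 2.41, 2.42 and 2.37 for soleus. Relative to the markers, brown fat was thus 0.20 log2 units below white fat (exact permutation p = 0.1, two-sided), and white fat was 0.28 above soleus (exact permutation p = 0.1). Between brown fat and soleus the relative level differed by 0.08 (exact permutation p = 0.5). With 3 libraries against 3 the smallest p this test allows is 0.1, so none of these could pass a threshold of 0.05.

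For Lipg such a reading carried little about the gene itself. Its soleus level was so near 0 that the score there was in effect the endothelial mean with its sign turned. The differences of the score, 0.38 for brown over white fat, 0.63 for brown fat over soleus and 0.25 for white fat over soleus, turned to -0.08, -0.09 and -0.01 with a pseudocount of 5, so no order of tissues is read from them.

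**Figure D2:**
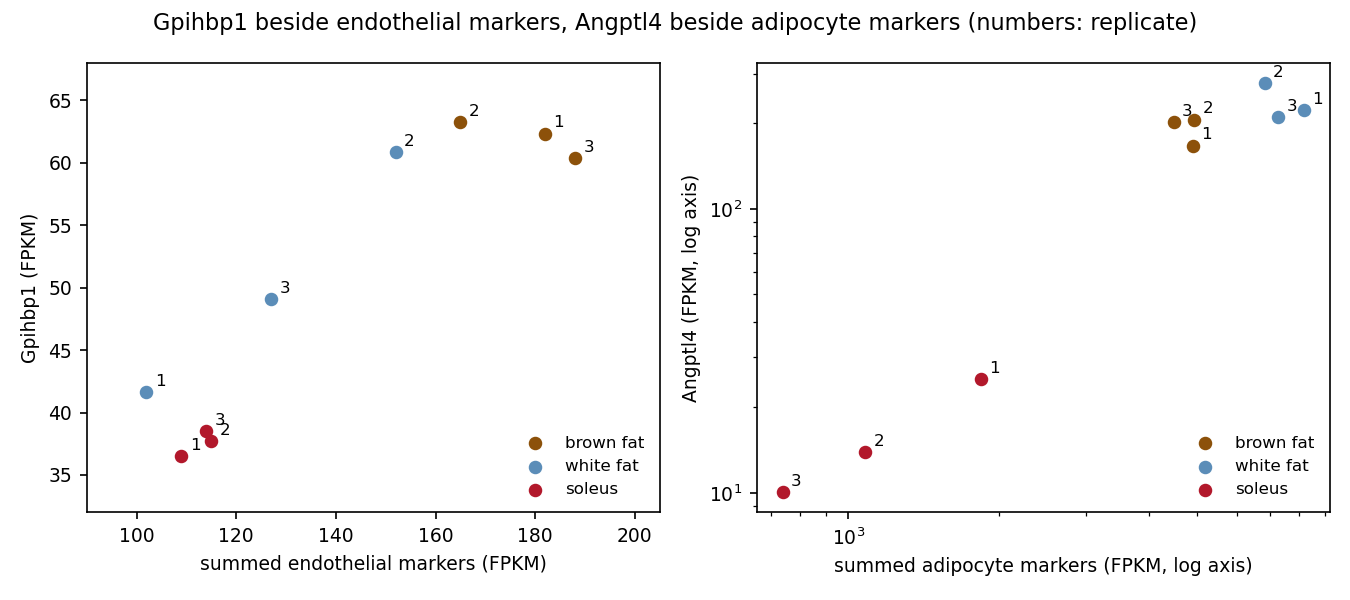
Left, Gpihbp1 (FPKM) against the summed endothelial markers (FPKM); right, Angptl4 (FPKM, log axis) against the summed adipocyte markers (FPKM, log axis); each point is a library, coloured by tissue and numbered by replicate. In white fat Gpihbp1 and the endothelial sum take the same order (41.6, 49.1 and 60.8 FPKM beside 102, 127 and 152), and in soleus Angptl4 and the adipocyte sum take the same order (10.1, 13.9 and 25.1 FPKM beside 738, 1081 and 1840). The soleus adipocyte sum is mostly Fabp4, which was listed at 0 in both kinds of fat, so that axis does not compare soleus with fat.

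The maturation genes did not move as a block. Lmf1, an endoplasmic reticulum membrane protein gene without which the lipase is not made active, was highest in brown fat, at 25.6, 26.4 and 23.4 FPKM. It stood at 10.5, 9.18 and 10.2 FPKM for white fat and at 6.30, 6.61 and 5.42 for soleus, with no overlap between tissues. Brown fat exceeded white fat by 1.25 log2 units (SE 0.09, limma adjusted p = 2.6e-07), and the difference stayed between 0.73 and 1.32 in all 19 alternatives. It exceeded soleus by 1.88 (SE 0.09, limma adjusted p = 6.4e-09). White fat exceeded soleus by 0.63 (SE 0.09, limma adjusted p = 4.4e-05), which was 0.21 with median of ratios scaling (adjusted p = 0.051) and 1.22 after rescaling to a common total.

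Lmf2, the relative of Lmf1, was instead highest in white fat, at 9.97, 10.3 and 10.9 FPKM in replicates 1, 2 and 3. It stood at 8.25, 8.85 and 8.11 FPKM in brown fat and at 4.18, 3.25 and 4.02 in soleus. The tissues did not overlap, though brown fat replicate 2 and white fat replicate 1 came close. Brown fat was below white fat by a log2 difference of -0.28 (SE 0.09, limma adjusted p = 0.014), a call that was lost without white fat replicate 3 (adjusted p = 0.055). That difference ran from -0.87 to -0.20 over the alternatives. Both kinds of fat exceeded soleus, brown fat by 0.97 (SE 0.09, limma adjusted p = 1.3e-06) and white fat by 1.24 (SE 0.09, limma adjusted p = 1.3e-07), with ranges of 0.61 to 1.13 and 0.80 to 1.92 over the alternatives.

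Sel1l, the adaptor of the HRD1 ubiquitin ligase that also lets lipase leave the endoplasmic reticulum, followed the order of Lmf2. It stood at 14.8, 16.1 and 15.7 FPKM in white fat, at 11.6, 12.8 and 12.5 in brown fat and at 7.40, 6.86 and 8.82 in soleus. Here too each tissue kept to its own range. The log2 difference between brown and white fat was -0.31 (SE 0.09, limma adjusted p = 0.0085), and ran from -0.91 to -0.25 over the alternatives, with an adjusted p of 3.6e-05 to 0.032. Brown fat exceeded soleus by 0.62 (SE 0.09, limma adjusted p = 7.1e-05) and white fat did so by 0.93 (SE 0.09, limma adjusted p = 2e-06), with ranges of 0.25 to 0.71 and 0.50 to 1.54.

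Ratios of genes within a library do not depend on how libraries are scaled to each other, and they show the parting of Lmf1 from the other maturation genes. The ratio of Lmf1 to Lmf2 was 3.10, 2.98 and 2.88 in brown fat, against 1.05, 0.893 and 0.935 for white fat and 1.51, 2.03 and 1.35 for soleus. The tissues did not overlap, at 2.99 ± 0.109, 0.961 ± 0.0839 and 1.63 ± 0.358 (SD, n = 3 each). Lmf1 per Sel1l was 2.20, 2.06 and 1.86 in brown fat, against 0.569 to 0.712 in white fat and 0.615 to 0.964 in soleus, where the last 2 ranges overlapped. Lmf2 per Sel1l was alike in both kinds of fat, at 0.647 to 0.712 in brown and 0.637 to 0.693 in white fat, and lower in soleus at 0.456 to 0.565. These ratios were chosen after the values were seen and are given without a test.

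**Figure D3:**
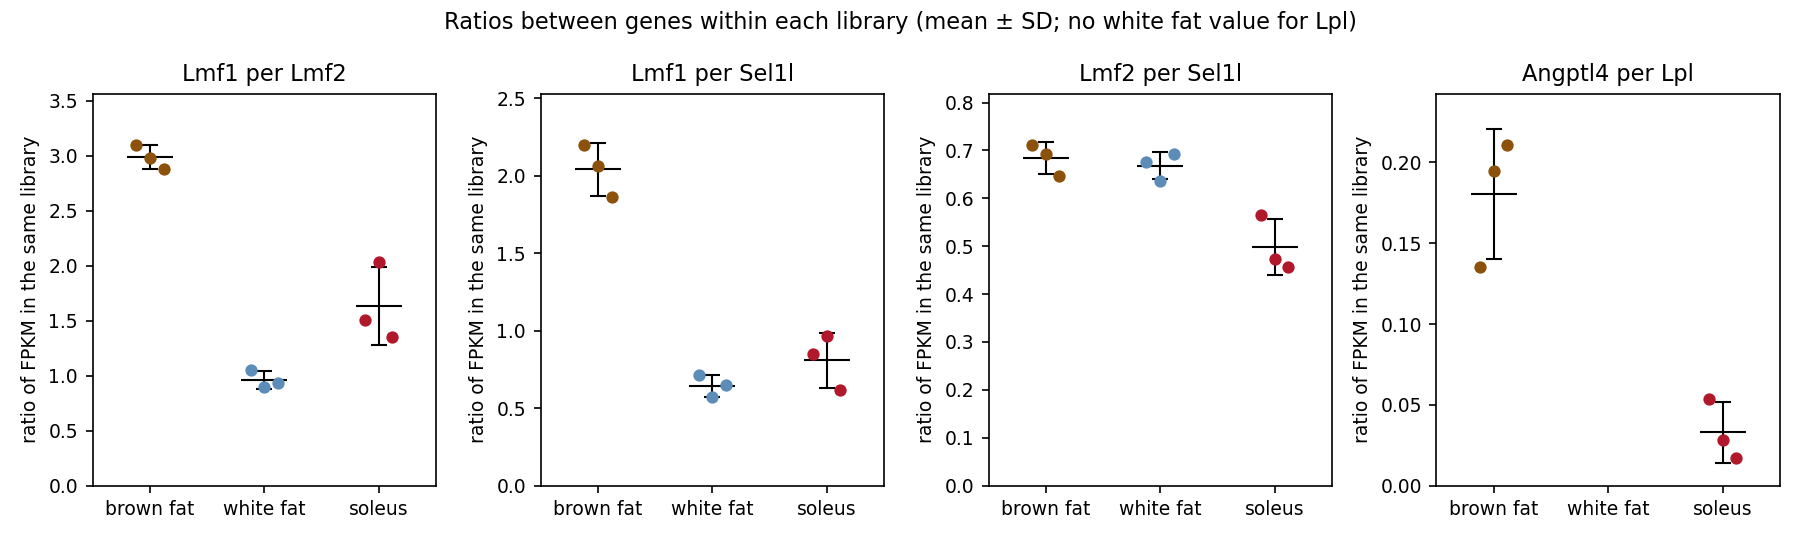
Ratios of FPKM between 2 genes of the same library (points, replicates 1 to 3 from left to right), with mean (wide bar) and SD (capped line); axes start at 0 and Angptl4 per Lpl has no white fat value because Lpl was listed at 0 there. Lmf1 per Lmf2 separates all 3 tissues, at 2.88 to 3.10 in brown fat, 1.35 to 2.03 in soleus and 0.893 to 1.05 in white fat, while Lmf2 per Sel1l overlaps between both kinds of fat.

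Since Lmf2 and Sel1l kept one order across tissues and Lmf1 another, the promoter stretches of these 3 genes are shown. They are from RefSeq, build GRCm38.p6, read 5′ to 3′ on the strand of the gene, upstream of the annotated start and free of exons in GENCODE. Capitals mark CCAAT boxes (CCAAT or ATTGG) and GC boxes (GGGCGG or CCGCCC).
Lmf1, chr17:25578924-25579084, plus strand: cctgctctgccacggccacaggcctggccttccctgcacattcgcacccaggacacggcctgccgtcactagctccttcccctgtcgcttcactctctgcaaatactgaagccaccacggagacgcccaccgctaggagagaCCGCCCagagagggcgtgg
Lmf2, chr15:89355660-89355718, minus strand: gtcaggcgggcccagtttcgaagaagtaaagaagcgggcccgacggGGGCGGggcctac
Sel1l, chr12:91849158-91849407, minus strand: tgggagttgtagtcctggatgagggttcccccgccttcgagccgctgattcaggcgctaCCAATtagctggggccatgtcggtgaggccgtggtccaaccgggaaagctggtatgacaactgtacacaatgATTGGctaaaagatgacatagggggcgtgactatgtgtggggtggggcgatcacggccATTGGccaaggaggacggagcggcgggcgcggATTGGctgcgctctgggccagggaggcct

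The Sel1l stretch held 4 matches to CCAAT on either strand and 0 to the GC box. Of 32851 promoter windows of 250 bases in the table, 33.8% held at least 1 CCAAT match and 0.84% held 4 or more. The Lmf1 and Lmf2 stretches, of 161 and 59 bases, held 1 GC box each and 0 CCAAT matches. In stretches of the same place and length, 18.2% and 18.4% of all promoters held a GC box, and 21.6% and 10.7% held a CCAAT match. None of the 3 held the full ER stress element, which 0.113% of windows held, nor the nuclear receptor half-site AGGTCA. The cAMP response half-site TGACG was in 17.8% of windows. The full window of 250 bases had 1 match for Lmf1, 2 for Lmf2 and 0 for Sel1l. These are matches of letters and not sites. The Lmf1 stretch ends 89 bases before the RefSeq start, where an annotated Lmf1 exon begins, and exons of Ncaph2 fill the rest of the Lmf2 window. Ncaph2, a condensin subunit gene named here for its place, stood at 19.8 to 22.4 FPKM in brown fat, against 14.5 to 17.2 for white fat and 17.2 to 19.5 for soleus, which is not the order of Lmf2, and it was higher in brown than in white fat by 0.38 log2 units (SE 0.08, limma adjusted p = 0.0021).

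Angptl4, the inhibitor of the lipase, was far higher in both kinds of fat than in muscle. It stood at 167, 206 and 202 FPKM in brown fat, against 223, 277 and 211 for white fat and 25.1, 13.9 and 10.1 for soleus. All white fat libraries lay above all brown fat libraries, by little, and no fat library came near soleus. Brown fat exceeded soleus by 3.56 log2 units (SE 0.25, limma adjusted p = 2.3e-07) and white fat exceeded it by 3.86 (SE 0.25, limma adjusted p = 9.1e-08). The log2 difference between brown and white fat, -0.30 (SE 0.25), did not pass (limma adjusted p = 0.31), though it was -0.89 and called after rescaling to a common total (adjusted p = 0.015, range over the alternatives 0.015 to 0.59).

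Adipocyte transcripts were present in the soleus libraries and differed between them in the same order as Angptl4. The 7 adipocyte markers found in the matrix summed to 1840, 1081 and 738 FPKM in soleus replicates 1, 2 and 3. Most of this was Fabp4, at 1272, 827 and 617 FPKM. Fat libraries summed to 4486 to 8176 FPKM, but Fabp4 was listed at 0 in both kinds of fat and Cfd in white fat. None was listed at 0 in soleus, so the sums cover different genes and give no share of adipocyte RNA. Adipoq, the adiponectin gene, stood at 906 to 1061 FPKM in brown fat and 2573 to 3067 in white fat. In soleus replicates 1, 2 and 3 it stood at 77.1, 31.8 and 12.4 FPKM, beside 25.1, 13.9 and 10.1 for Angptl4. Lpl ran the other way there, at 470, 490 and 594 FPKM. The part of adipocyte RNA in the soleus values of Angptl4 was not tested.

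Per transcript length, Lpl exceeded Angptl4 in every library where Lpl was not listed at 0. Angptl4 per Lpl was 0.135, 0.195 and 0.211 in brown fat replicates 1, 2 and 3 and 0.0535, 0.0284 and 0.0170 in soleus. Brown fat therefore carried more transcript of the inhibitor for each transcript of the enzyme than soleus did, at 0.180 ± 0.0400 against 0.0330 ± 0.0187 (SD, n = 3 each). Within brown fat replicate 1 held the lowest Angptl4 and the highest Lpl. Gpihbp1 per Lpl was 0.0503, 0.0596 and 0.0631 in brown fat and 0.0777, 0.0770 and 0.0649 in soleus, ranges that came close without overlap.

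Angptl1, which encodes a secreted relative with effects on vessels, was lowest in white fat. It stood at 6.41, 6.56 and 6.13 FPKM in brown fat, against 2.22, 3.37 and 1.55 for white fat and 6.04, 4.54 and 5.16 for soleus. White fat lay below both other tissues in every library, by a log2 difference of 1.16 for brown over white fat (SE 0.17, limma adjusted p = 8.5e-05) and of -0.92 for white fat against soleus (SE 0.17, limma adjusted p = 0.00035), with ranges of 0.63 to 1.45 and -1.29 to -0.48 over the alternatives. Brown fat and soleus differed by 0.24 (SE 0.17, limma adjusted p = 0.2), a value that turned to -0.08 with upper quartile scaling and -0.11 with median of ratios scaling, and that passed with those tissues alone in the fit (adjusted p = 0.048). Exons of Gm37802 on the opposite strand overlap those of Angptl1 in GENCODE. Whether counting used strand is not given in the sources used here, so reads of the pair cannot be told apart.

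Angptl2, which encodes a secreted factor tied to fat inflammation, was higher in both kinds of fat than in soleus and was not called between them. It stood at 31.0, 33.1 and 27.4 FPKM in brown fat, against 31.9, 35.3 and 23.9 for white fat and 9.18, 7.72 and 11.3 for soleus. The ranges of both kinds of fat overlapped fully, with a log2 difference of 0.02 (SE 0.16, limma adjusted p = 0.91), which was -0.14 with upper quartile scaling, -0.56 and called after rescaling to a common total (adjusted p = 0.013), -0.04 without brown fat replicate 2 and -0.14 without white fat replicate 3. Brown fat exceeded soleus by 1.61 log2 units (SE 0.16, limma adjusted p = 2.8e-06) and white fat did so by 1.59 (SE 0.16, limma adjusted p = 2.5e-06). Stromal and macrophage markers, genes of cells that can make such factors, were not level between the fats: the 9 stromal markers summed to 281 to 312 FPKM in brown and 1726 to 1798 in white fat, and the 8 macrophage markers found to 48.2 to 56.9 and 485 to 597. The part of these cells in the Angptl1 and Angptl2 values was not tested.

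**Figure D4:**
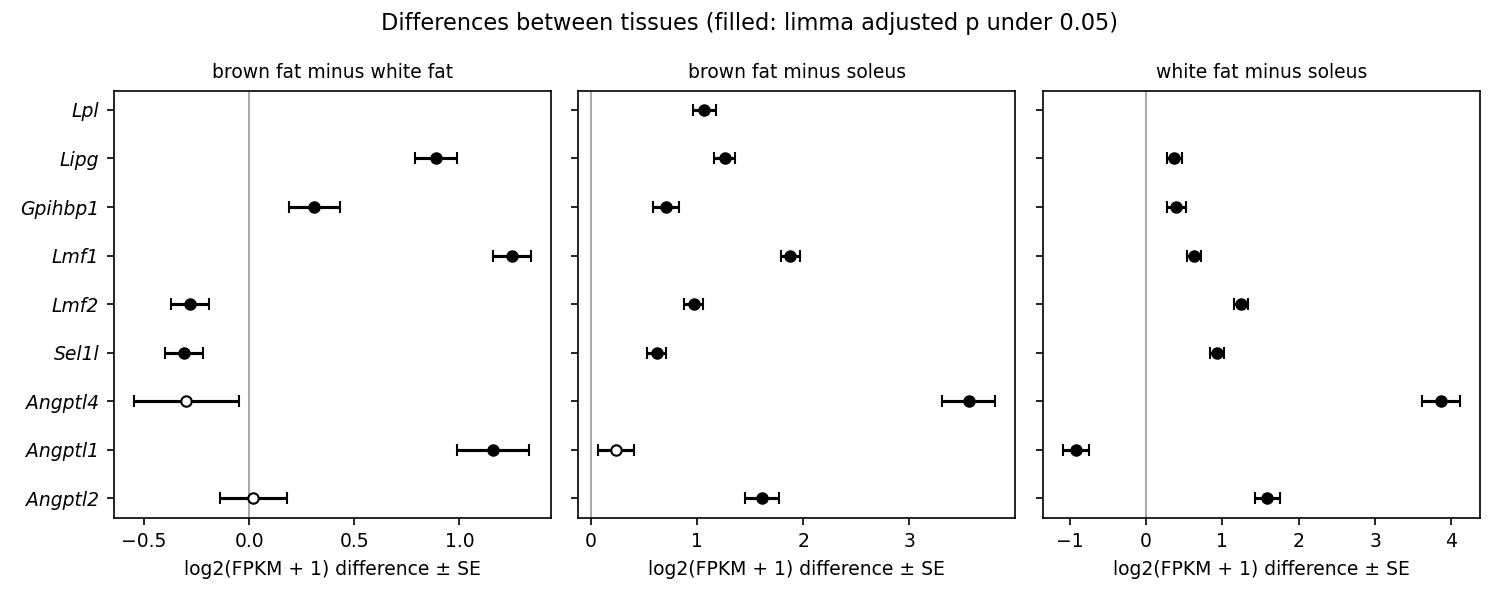
Log2(FPKM + 1) differences between tissues (points) with SE (lines) from limma for the 9 genes; filled points had an adjusted p under 0.05, Lpl is left out against white fat, where it was listed at 0, and Lipg had to differ because of the filter. Angptl4 has the largest differences of the genes drawn from soleus (3.56 and 3.86), and Lmf2 and Sel1l lie below 0 where brown fat is set against white fat, opposite to Lmf1.

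Other genes of the pathway were taken from lists chosen by function, with earlier results of these data known. Their counts are to be read beside those of all tested genes. Of these 38.0% were higher and 34.8% lower in brown against white fat (median 0.03), 52.9% and 25.6% in brown fat against soleus (median 0.29), and 54.5% and 29.7% in white fat against soleus (median 0.35). Of the remaining angiopoietin-like genes and the proprotein convertases that cut these proteins and the lipase, 7 were tested. Between the fats, Furin, Angptl6 and Pcsk7 were called higher in brown and Pcsk5 and Pcsk6 higher in white fat (median -0.03), a split of 3 to 2 that became 1 to 4 after rescaling to a common total. Against soleus, 5 were higher and 1 lower in brown fat (median 1.04), and 5 were higher and 2 lower in white fat (median 1.07), where 52.9% and 54.5% of all genes were higher. Pcsk6, a convertase gene, was the most abundant, at 19.1 ± 2.22 FPKM in brown fat, against 25.7 ± 3.62 for white fat and 6.21 ± 0.407 for soleus (SD, n = 3). Angptl7 was found mainly in soleus, at 5.54, 2.22 and 1.63 FPKM against at most 0.0868 in fat. The genes named here other than Pcsk6 were singled out after their values were seen.

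Among the apolipoproteins that steer the lipase, 5 of 6 had a row and 3 were tested, Apoc1, Apoc2 and Apoc3. Apoc1 and Apoc3 were called higher in brown than white fat and Apoc2 lower, and all 3 were called higher in each fat than in soleus, where Apoc3 was listed at 0. Apoc2, the gene of the activator of the lipase, was low in these tissues, at 0.432 to 0.648 FPKM in brown fat, against 1.68 to 1.85 for white fat and 0.0267 to 0.073 for soleus. Apoc1, whose product holds back lipolysis, was the most abundant and stood at 1481 ± 142 FPKM in brown fat, against 278 ± 35.5 for white fat and 7.94 ± 6.11 for soleus (SD, n = 3). Apoa5 was listed at 0 in white fat and soleus and reached 0.0119 FPKM in 1 brown fat library. Apoc2, Apoc3 and Apoa5 were singled out after their values were seen.

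The endoplasmic reticulum list, 17 tested genes of folding, quality control and sorting, was mostly called lower in brown than white fat and higher in fat than in soleus. In brown against white fat 10 were lower and 1 was higher, where 34.8% of all genes were lower and 38.0% higher, with a median of -0.36 log2 units, beside -0.28 for Lmf2, -0.31 for Sel1l and 1.25 for Lmf1. The list's median was -0.52 with upper quartile scaling, -0.29 with median of ratios scaling and -0.95 (16 lower) after rescaling to a common total, while the median of all genes moved to -0.08, 0.08 and -0.50. The chaperone gene Calr was the most abundant of the list, at 135 ± 14.5 FPKM in brown and 198 ± 6.81 in white fat (SD, n = 3), a log2 difference of -0.56 (SE 0.09, limma adjusted p = 0.00021). The 1 higher gene was Herpud1, an ER stress gene, at 38.6 ± 9.74 against 18.0 ± 1.83 FPKM. Against soleus 14 were higher and 1 lower in brown fat, and 16 were higher and 1 lower in white fat (medians 1.02 and 1.31), where 52.9% and 54.5% of all genes were higher, the lower ones being P4hb, a disulfide isomerase subunit gene, and Herpud1. For brown fat against soleus, upper quartile scaling gave 12 higher and 3 lower (median 0.65). Median of ratios scaling gave 11 and 3 (median 0.62), while the median of all genes moved to 0.01 and -0.01 with these scalings. P4hb and Herpud1 were singled out after their values were seen. Sort1, the gene of the sorting receptor sortilin, had the largest change, from 2.17 ± 0.531 FPKM in soleus to 68.7 ± 4.69 in white fat (4.47 log2 units, SE 0.13, limma adjusted p = 1.7e-10).

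Lipoprotein receptors and heparan sulfate genes, the other docking places of the lipase and its particles, were called lower in brown fat than white for 11 of 16 tested genes and higher for 3 (median -0.64), where 34.8% of all genes were lower and 38.0% higher (median 0.03). The most abundant was Hspg2, the perlecan gene, at 28.2 ± 1.97 FPKM in brown fat, against 45.2 ± 3.89 for white fat and 25.3 ± 4.90 for soleus (SD, n = 3). The 3 higher ones were Ndst1, a heparan sulfate sulfotransferase gene (0.55 log2 units, SE 0.11, limma adjusted p = 0.0013), Vldlr, the VLDL receptor gene, at 38.9 ± 2.13 against 10.1 ± 1.26 FPKM, and Sdc4, a syndecan gene, at 47.2 ± 3.66 against 11.5 ± 0.911 FPKM. In soleus Vldlr stood at 24.1 ± 1.41 FPKM. These 3 genes were singled out after their values were seen. Gpc1, a glypican gene, had the largest change of the list and was highest in soleus, at 50.5 ± 4.21 against 2.01 ± 0.640 FPKM in brown fat (-4.12 log2 units, SE 0.15, limma adjusted p = 9.4e-10). Against soleus 8 were higher and 1 lower in brown fat (median 0.39; all genes 52.9% and 25.6%, median 0.29), and 11 were higher and 4 lower in white fat (median 1.08; all genes 54.5% and 29.7%, median 0.35). With upper quartile and median of ratios scaling, 6 were higher and 3 lower in brown fat than in soleus, with medians of 0.09 and 0.06.

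Genes that take up the freed fatty acids parted by tissue. Cd36, the fatty acid receptor gene of fat and muscle, stood at 664 ± 29.3 FPKM in brown fat, against 1016 ± 87.7 for white fat and 217 ± 13.4 for soleus (SD, n = 3). Fabp3, the heart and muscle binding protein gene, stood at 290 ± 7.24 FPKM in soleus, 58.1 ± 18.1 in brown fat and 0.349 ± 0.0770 in white fat. In brown fat it took the same order as the muscle markers, at 39.7, 75.9 and 58.9 FPKM in replicates 1, 2 and 3 beside a muscle sum of 39.9, 280 and 151. The muscle sum was 43532 to 52512 FPKM in soleus, and the part of muscle RNA in brown fat was not tested. Of 6 tested genes, Fabp3 and Acsl1, an acyl-CoA synthetase gene, were called higher in brown fat than white and Cd36 lower (median -0.08). Against soleus 4 were higher and 2 lower both in brown and in white fat (medians 1.29 and 0.79), with Fabp4 counted among the lower ones although listed at 0 in fat.

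Other lipases were few. Lipe, hormone-sensitive lipase, which acts inside the adipocyte, stood at 517 ± 11.2 FPKM in brown fat, against 469 ± 22.9 for white fat and 13.7 ± 6.97 for soleus (SD, n = 3), without a call between the fats (limma adjusted p = 0.62). Of the relatives of lipoprotein lipase, Lipc, the hepatic lipase gene, stayed at or under 0.034 FPKM, and Pnlip and Lipi were listed at 0 in all 9 libraries. Pla1a, a phospholipase gene of the family, was highest in white fat, at 31.1 ± 6.23 FPKM against 4.56 ± 0.428 in brown fat and 4.04 ± 0.541 in soleus. Lipa and these relatives were singled out after their values were seen. Over the 4 tested genes of the list, Lipa, the lysosomal acid lipase gene, was called higher in brown fat than white and Pla1a lower, while 3 were higher in brown fat and 4 in white fat than in soleus.

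Nuclear receptors and other factors known to act on Lpl and Angptl4 were taken as one list of 10 tested genes. In brown against white fat 5 were higher and 2, Rxra and Nr3c1, lower (median 0.16), a split that became 2 higher and 5 lower after rescaling to a common total. Against soleus 7 were higher and 0 lower in brown fat (median 1.10; 2 lower with median of ratios scaling, and 0 lower by limma at an unadjusted p under 0.05), and 7 were higher and 1, Ppara, lower in white fat (median 1.12). Pparg, the adipocyte receptor gene, stood at 149 ± 4.55 FPKM in brown fat, against 66.5 ± 3.21 for white fat and 2.28 ± 0.937 for soleus (SD, n = 3). Ppara, which with Rxra and Nr3c1 was singled out after its values were seen, stood at 83.3 ± 3.64, 1.46 ± 0.189 and 8.43 ± 1.38 FPKM in the same order of tissues.

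Lpl aside, which was listed at 0 in white fat, the genes with the pattern most like each gene were sought among 9829 genes not listed at 0 in a tissue, by the root mean square distance of log2(FPKM + 1) over the 9 libraries after centring. Pecam1, an endothelial adhesion gene, and Ranbp2 were nearest to Gpihbp1, both at 0.10 log2 units. Stx18 and Ptdss2 were nearest to Lmf1 (0.07 and 0.08), Cask and Tanc1 to Lmf2 (0.03 and 0.06), and Tut7 and Nsd2 to Sel1l (0.06 each). Iah1 and Ebf1 were nearest to Angptl4 (0.21 and 0.24), Dot1l and Serac1 to Angptl1 (0.15 and 0.19), Mprip and Map4k4 to Angptl2 (0.14 each), and Wdr4 and Chd1 to Lipg (0.09 and 0.10). The match of Lipg rests on the pseudocount. Lipg means were 1.42, 0.299 and 0.00423 FPKM in brown fat, white fat and soleus, beside 5.36, 2.4 and 1.67 for Wdr4. With 3 tissues many genes share each pattern, and no shared function is read from it.

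**Figure D5:**
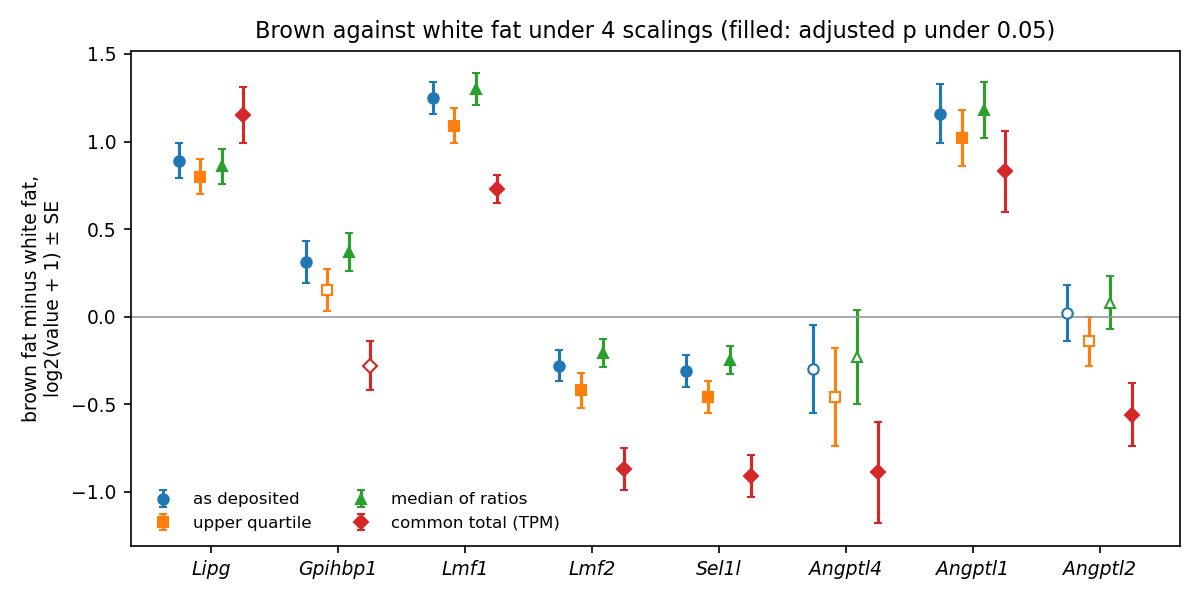
Log2 difference of brown minus white fat (points) with SE (lines) for 8 genes under 4 scalings of the deposited values: as deposited, upper quartile, median of ratios and a common total; filled points had an adjusted p under 0.05. Lmf1 and Angptl1 stay above 0 and Lmf2 and Sel1l below 0 under all 4, while Gpihbp1 runs from 0.31 as deposited to -0.28 with a common total. Lipg had to differ because of the filter, so its place above 0 and its filled points are no result.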

How the data were processed

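The authors deposited a matrix of FPKM values (fragment counts scaled to transcript length and to the mapped total), with 18401 rows named by RefSeq accessions and 1 column for each of the 9 libraries. TopHat 1.4.1, Cufflinks 2.0.1 and the mouse build mm9 are named per the submitters' processing notes. Counts and mapped totals were not given in the sources used here. TPM rescaling was computed from the deposited FPKM.

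Accessions were matched to symbols through a RefSeq table (18305 rows) and a GENCODE table (38 rows), and rows of a symbol were summed, which left 17753 genes. Each of the 9 genes described here had 1 row. Levels were compared as log2(FPKM + 1), where a pseudocount of 1 was added, by limma 3.58.1 (R 4.3.3), whose prior variance followed the mean level. The 9913 genes that reached 1 FPKM in 3 or more libraries were tested. All 9 libraries entered one fit with 6 residual degrees of freedom. Tests were two-sided, with Benjamini-Hochberg adjustment over all tested genes within a comparison and a threshold of 0.05. The fit was tried on simulated data in which, unlike here, few genes differed between tissues. That trial therefore says nothing about the scaling between tissues. An exact permutation test over libraries was used for single values.

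The 9 genes, the lists and the tests were chosen with earlier results of these data known. Genes outside the 9 were named by rule: from each list the gene with the highest mean and the called gene with the largest change, leaving out genes listed at 0 in a whole tissue, and for each of the 9 the genes with the nearest pattern. Genes singled out after their values were seen are mostly named as such. Acsl1, Fabp4, Cfd, Adipoq, Acta1, Ckm, Mb, Cox8b and Cox7a1 were also named outside the rule. The values of 1 gene that the list counts include are not reported here. Sequences came from a RefSeq promoter table of build GRCm38.p6, not the build of the files, and no other coordinates are given. Promoter entries were matched for 5 of the 9 genes, and the others, Lpl, Lipg, Gpihbp1 and Angptl4, are named only. Alternatives covered the pseudocount, the filter, 3 scalings, the libraries in the fit, the replicate number as a block, the treatment of rows and each library left out in turn. The labels do not say whether libraries with the same number share a mouse.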

Additional observations from a re-analysis of the deposited data

How the results depend on the processing

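Across 472 alternative values of single genes, 452 kept their direction and their side of the threshold, 10 lost the call, 2 gained it and 8 reversed. The 452 include all 18 values of Lipg in each comparison, although the filter fixed its direction for brown fat. The reversed ones, all of Gpihbp1, Angptl1 or Angptl2, were in brown against white fat -0.28 for Gpihbp1 and -0.56 for Angptl2 with TPM rescaling, -0.14 for Angptl2 with upper quartile scaling, and -0.04 and -0.14 for Angptl2 without brown fat replicate 2 or white fat replicate 3 (-0.14 to 0.13 with each library left out). In brown fat against soleus they were -0.08 and -0.11 for Angptl1 with upper quartile and median of ratios scaling, and in white fat against soleus -0.07 for Gpihbp1 with median of ratios scaling. The number of genes lower in brown than in white fat was 2, but 4 with TPM rescaling, and 1 to 2 with each library left out in turn. The number lower in white fat than in soleus was 2, and 1 when Lpl, listed at 0 there, was not counted, an alternative chosen after seeing the data. Lipg relative to endothelial markers turned to -0.08, -0.09 and -0.01 with a pseudocount of 5. The cause was not tested. TPM rescaling moved the median of all genes from 0.03 to -0.50 in brown against white fat, and the higher share of its calls from 52.2% to 22.6%. In brown fat against soleus that share was 67.4%, or 51.1% with upper quartile and 49.3% with median of ratios scaling, which brought the median from 0.29 to 0.01 and -0.01. In white fat against soleus it was 64.7%, or 48.7% with median of ratios scaling and 78.8% with TPM rescaling, with medians of 0.35, -0.02 and 0.93. Deviations from the tissue mean correlated at -0.22 to 0.08 for same-numbered libraries and at -0.19 to 0.36 for differently numbered ones. With 3 libraries a tissue, whose deviations constrain each other, this cannot show whether a replicate number marks a shared mouse. With the replicate number as a block, the counts of higher and lower genes were 5 and 2 for brown against white fat, 8 and 0 for brown fat over soleus, then 7 and 2 for white fat over soleus, as without it. Lipg was not tested with the filter of 5 FPKM. Depth differed by up to 3.58 times between libraries, which limits the values under 0.1 FPKM.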
